A study of Macaca mulatta with 30 samples.

Results

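The genes of surfactant phosphatidylcholine and fatty acid synthesis were followed in the lungs of fetal Rhesus macaques whose mothers had received a betamethasone injection. The set was given as 10 gene symbols, and its members were the rows of the lung read count table that carry those symbols in the Ensembl Rhesus annotation. Of these, 7 had a row among the 30246 genes of the lung table, namely CHKA, PCYT1B, CHPT1, LPCAT1, ACACA, FASN and SREBF1, and all 7 passed the filter on low counts. PCYT1A was matched in the hippocampus table alone, so 8 of the 10 genes were measured in hippocampus. CHKB and SCD were matched in neither table and have no value here.

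Whole lung was sequenced from 15 fetuses, 3 in each of 5 groups. Control mothers received saline. The lung labels give no time after saline, while the hippocampus labels of the same 3 control fetuses give 5 d. If that holds, the early drug groups and the controls also differ in time since injection. That time and the drug cannot be told apart there. The clinical drug was intramuscular Celestone, a mixture of betamethasone phosphate and betamethasone acetate, at 0.25 mg/kg, with lungs collected after 4 h or 5 d. Beta-Ac was betamethasone acetate alone at 0.125 mg/kg, with lungs collected after 6 h or 5 d, so that formulation, dose and, for the early groups, collection time differ together between the drugs and cannot be told apart. The labels give 124 to 130 days of gestation for lung and 130 to 136 days for hippocampus, and for the 9 fetuses with both tissues the hippocampus labels (131 to 136 days) lie above the lung range. Hippocampus was sequenced from 15 fetuses, 5 controls (CTL), 5 after Beta-Ac (BAC) and 5 after the clinical drug (CEL), all 5 d after treatment. These groups follow the library titles, which match the lung labels of the same animal numbers. The treatment and dose fields of the hippocampus libraries name the opposite drug, and CEL and BAC would trade places if those fields were right. Both tissues were available from 9 fetuses, 3 each of control, clinical drug 5 d and Beta-Ac 5 d.

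Phosphatidylcholine, the main lipid of lung surfactant, is built in the CDP-choline pathway. Choline kinase (CHKA, CHKB) makes phosphocholine, the CCT enzymes (PCYT1A, PCYT1B) turn it with CTP into CDP-choline in the rate-limiting step, and cholinephosphotransferase (CHPT1) joins it to diacylglycerol. LPCAT1, abundant in alveolar type 2 cells, reacylates lysophosphatidylcholine with saturated fatty acid. Acetyl-CoA carboxylase (ACACA), fatty acid synthase (FASN) and stearoyl-CoA desaturase (SCD) supply the acyl chains, under the transcription factor encoded by SREBF1.

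Lung libraries held 14073002 to 45033799 counted reads and hippocampus libraries 18280762 to 29301058. Levels are CPM, the read count scaled to a common library size scaled by the trimmed mean of M values (TMM). They are not corrected for gene length, so they are compared between samples and never between genes. A gene was called changed where edgeR's quasi-likelihood test across all genes gave an adjusted p under 0.1, an unadjusted p under 0.05, and a group difference of 1.5-fold or more. The glucocorticoid target FKBP5 served as a check of the labels of the early lung groups. It was at 5.61 ± 0.296 CPM in saline lungs, 173 ± 49.6 CPM 4 h after the clinical drug and 52 ± 47.1 CPM 6 h after Beta-Ac (SD, n = 3 each). At 5 d it was 6.19 ± 0.45 CPM after the clinical drug and 6.15 ± 0.351 CPM after Beta-Ac. These levels are near that of saline, so FKBP5 could not check the 5 d labels.

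At 4 h after the clinical drug, CHKA and FASN rose and PCYT1B fell against saline, and the other 4 members did not pass the test. Thus 3 of 7 members were called, against 7.4% of all 17644 genes tested. The members' median log2 fold change was 0.20, beside 0.02 over all genes tested. At 6 h after Beta-Ac, CHKA alone was called, 1 of 7 against 0.442% of all genes, and the members' median was -0.05 beside 0.02 over all genes. At 5 d no member was called after either drug by edgeR, with 1 member at an unadjusted p under 0.05 in each comparison, and DESeq2 also called 0. Over all genes the share called at 5 d was 0% after the clinical drug and 0.00567% after Beta-Ac. Of the 17644 genes, 775 and 1133 had an unadjusted p under 0.05 there. Both drugs were compared with the same 3 saline lungs. In whole lung, fewer cells of a type and less RNA per cell cannot be told apart.

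**Figure D1:**
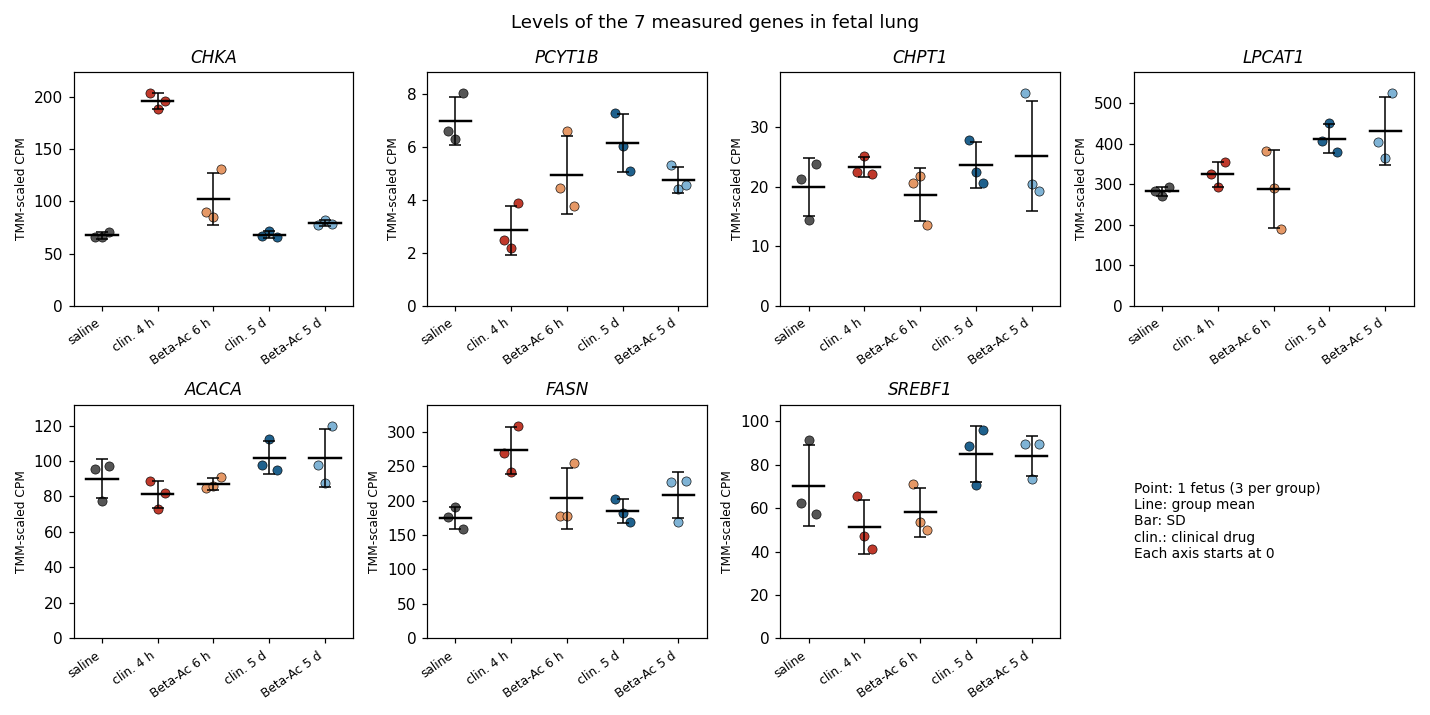
TMM-scaled CPM of the 7 measured genes in fetal lung (y axis, from 0, 1 panel per gene) in the 5 treatment groups (x axis). Points are single fetuses, lines are group means and bars are SD, with 3 fetuses per group. CHKA stands at 189.1 to 204 CPM in the 4 h clinical drug lungs, above each of the other 12 lungs, while PCYT1B is lowest in that group.

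CHKA, the choline kinase of the first step, had the largest fold change of the 7 genes in both early groups. It was at 65.5, 65.8 and 71.1 CPM in the saline lungs and at 189.1, 196.1 and 204.0 CPM 4 h after the clinical drug. The 6 h Beta-Ac lungs were at 85.4, 90.1 and 131.0 CPM. The 3 groups did not overlap, with every Beta-Ac lung between the saline and the clinical drug lungs. CHKA rose 2.91-fold in the 4 h clinical drug lungs (log2 fold change 1.54, SE 0.13, adjusted p = 3.03e-05), the rank 3 gene by p among all genes tested. It rose 1.51-fold 6 h after Beta-Ac (log2 fold change 0.60, SE 0.13, adjusted p = 0.0737), close to both thresholds. That call was lost when any of the 3 saline lungs or Beta-Ac animal 254, which held the highest value, was left out, with log2 fold changes of 0.38 to 0.69 over the 6 omissions.

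At 5 d CHKA was back among the control values after the clinical drug, at 65.8, 66.7 and 71.8 CPM, with a log2 fold change of 0.01 (95% interval -0.26 to 0.29). After Beta-Ac it was at 77.2, 78.6 and 82.3 CPM, all 3 above the highest saline lung. That difference was 0.23 on the log2 scale (95% interval -0.04 to 0.51, adjusted p = 0.757) and was not called. In order of mean level the groups ran from saline (67.5 ± 3.13 CPM) and clinical drug 5 d (68.1 ± 3.24) through Beta-Ac 5 d (79.4 ± 2.59) and Beta-Ac 6 h (102 ± 25.1) to clinical drug 4 h (196 ± 7.46). The 2 lowest groups differed by less than the spread between fetuses.

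PCYT1B, which encodes the beta form of CCT, was a low-count gene in lung, with 29 to 186 reads per library. It was at 6.30, 6.60 and 8.03 CPM in saline lungs and at 2.17, 2.48 and 3.88 CPM 4 h after the clinical drug, with no overlap. It fell 2.46-fold (log2 fold change -1.30, SE 0.27, adjusted p = 0.00746). In the 6 h Beta-Ac lungs it was at 3.76, 4.45 and 6.58 CPM, of which the highest lay within the saline range, and the log2 difference of -0.50 was not called (adjusted p = 0.366). At 5 d the values were 5.11, 6.03 and 7.28 CPM after the clinical drug, overlapping saline. After Beta-Ac they were 4.40, 4.57 and 5.31 CPM, all below the lowest saline lung, with a log2 difference of -0.55 (95% interval -1.11 to 0.00, adjusted p = 0.734) that was not called. PCYT1A, which encodes the alpha form of CCT, was not analysed here in lung.

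CHPT1, which completes phosphatidylcholine, was called in none of the 4 comparisons with saline. Its group means in lung ran from 18.7 ± 4.4 CPM 6 h after Beta-Ac to 25.2 ± 9.19 CPM 5 d after Beta-Ac, and saline lungs averaged 19.9 ± 4.89 CPM. Its log2 differences from saline lay between -0.09 and 0.34, each with an interval that includes 0. One Beta-Ac 5 d lung (animal 128) stood at 35.8 CPM against 19.3 and 20.5 CPM in the other two.

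LPCAT1, the acyltransferase of surfactant lipid remodelling, was called in no comparison with saline. Saline lungs were at 271.4, 283.5 and 294.1 CPM. At 5 d the lungs were at 380.7, 407.3 and 451.0 CPM after the clinical drug and at 363.9, 405.3 and 525.4 CPM after Beta-Ac. All 6 lungs of the 5 d groups were above all 3 saline lungs. Counted reads separated these lungs in the same way, at 14351859 to 19619580 in saline and 21738237 to 28994499 at 5 d. The part of depth in the LPCAT1 difference was not tested. Titles of the 5 d lungs begin with 16 and those of the saline lungs with 15 or 16. The log2 difference was 0.54 after the clinical drug (95% interval 0.12 to 0.97, unadjusted p = 0.0148, adjusted p = 0.931). It was 0.61 after Beta-Ac (95% interval 0.19 to 1.03, unadjusted p = 0.00785, adjusted p = 0.665), and neither was called. In DESeq2 the adjusted p was 0.729 and 0.304.

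The early groups of LPCAT1 overlapped saline more. In the 4 h clinical drug lungs it was at 293.9, 324.9 and 356.0 CPM (log2 difference 0.20, adjusted p = 0.452). In the 6 h Beta-Ac lungs it ranged from 189.8 CPM in animal 254 to 383.0 CPM in animal 123, the widest spread of any lung group for this gene, with an SD of 96.7 CPM. The log2 difference there was 0.03 (95% interval -0.39 to 0.45).

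FASN, which makes palmitate, was at 158.3, 176.5 and 190.1 CPM in saline lungs and at 240.8, 269.4 and 308.3 CPM 4 h after the clinical drug, without overlap. It rose 1.56-fold (log2 fold change 0.64, SE 0.16, adjusted p = 0.0181). The fold change fell under 1.5 without clinical drug animal 97 (log2 fold change 0.53) or saline animal 113 (0.57). Of the 6 h Beta-Ac lungs, 2 were at 177.5 and 177.9 CPM, within the saline range, and animal 254 was at 253.9 CPM (log2 difference 0.22, adjusted p = 0.465). At 5 d FASN averaged 185 ± 17.1 CPM after the clinical drug and 208 ± 33.5 CPM after Beta-Ac, overlapping saline in both groups.

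ACACA, which makes the malonyl-CoA that FASN uses, was called in no comparison with saline. Its saline lungs averaged 90.1 ± 10.9 CPM and its 4 h clinical drug lungs 81.2 ± 7.69 CPM, a log2 difference of -0.15 (95% interval -0.41 to 0.12). At 5 d it averaged 102 CPM after both drugs, with SDs of 9.22 CPM for the clinical drug and 16.5 CPM for Beta-Ac, and both differences from saline were 0.18 or less on the log2 scale and were not called.

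SREBF1 varied among the controls, at 57.2, 62.4 and 91.6 CPM. In the 4 h clinical drug lungs it was at 41.3, 47.3 and 65.4 CPM, with the highest of the 3 inside the saline range (log2 difference -0.45, unadjusted p = 0.0471, adjusted p = 0.178). It was called only when clinical drug animal 81 was left out, at a log2 fold change of -0.68. In the 6 h Beta-Ac lungs it was at 49.7, 53.8 and 71.0 CPM, and at 5 d it was at 70.7 to 95.8 CPM after the clinical drug and 73.6 to 89.6 CPM after Beta-Ac.

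**Figure D2:**
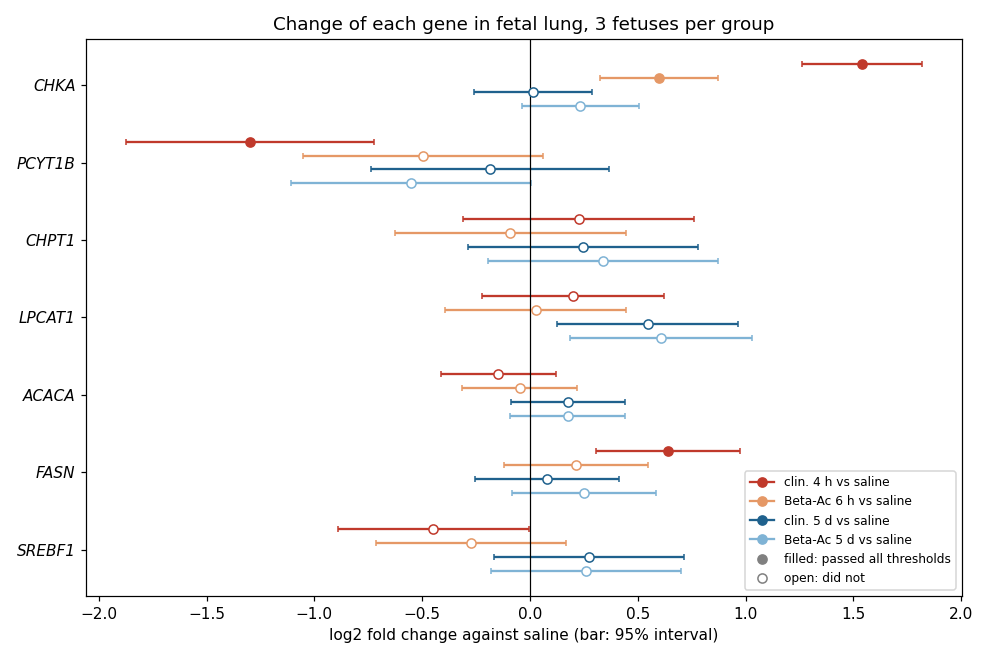
Log2 fold change against saline (x axis, bars are 95% intervals) of the 7 genes (y axis) in fetal lung for each drug and time, 3 fetuses per group. Filled points passed all 3 thresholds, which holds for CHKA in both early groups and for PCYT1B and FASN 4 h after the clinical drug, while the LPCAT1 intervals at 5 d lie above 0 with open points.

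The early groups were also compared with each other. CHKA was 1.92-fold higher 4 h after the clinical drug than 6 h after Beta-Ac (log2 fold change 0.94, SE 0.13, adjusted p = 0.0016). PCYT1B was 1.74-fold lower (log2 fold change -0.80, SE 0.27, adjusted p = 0.0652). Thus 2 of 7 members were called, against 6.74% of all genes. FASN differed by 0.43 on the log2 scale (adjusted p = 0.0861), under the fold threshold, so that 3 of 7 members passed without that threshold, against 13.5% of all genes. The PCYT1B call was lost under several settings, with log2 fold changes of -1.09 to -0.54 when single lungs were left out. Titles of all 4 h lungs begin with 15 and those of the 6 h Beta-Ac lungs with 16 or 17, while saline lungs carry 15 and 16. The labels do not say what these numbers stand for.

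At 5 d no difference between the drugs passed the test. None of the 7 was called by edgeR or DESeq2, and none had an unadjusted p under 0.05. Over all genes edgeR called 0%, with 556 genes at an unadjusted p under 0.05, and DESeq2 called 7 genes. The intervals of the drug differences, clinical drug minus Beta-Ac, still reached -0.49 to 0.05 for CHKA, -0.19 to 0.92 for PCYT1B, -0.48 to 0.36 for LPCAT1 and -0.51 to 0.16 for FASN on the log2 scale.

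The times were compared within each drug. For the clinical drug CHKA was 2.88-fold higher at 4 h than at 5 d (log2 fold change 1.53, adjusted p = 1.65e-05). PCYT1B was lower at 4 h (-1.11, adjusted p = 0.0117), as was SREBF1 (-0.72, adjusted p = 0.0271), whose 4 h lungs all lay below its 5 d lungs. These were 3 of 7 members, against 10.4% of all genes. FASN (0.56) and ACACA (-0.32) passed on adjusted p but not on fold, which made 5 of 7 without the fold threshold against 18.7% of all genes. For Beta-Ac 0 of 7 members were called between 6 h and 5 d by edgeR and by DESeq2, and 0.261% of all genes. There 3 members had an unadjusted p under 0.05, with log2 differences of 0.36 for CHKA, -0.58 for LPCAT1 and -0.54 for SREBF1. So did 1396 of all 17644 genes. Titles of the clinical drug lungs begin with 15 at 4 h and with 16 at 5 d. These numbers and the time cannot be told apart there. Those of the Beta-Ac lungs begin with 16 or 17 at 6 h and with 16 at 5 d. Whether the time differences themselves differ between the drugs was not tested.

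Other genes of lipid synthesis were counted from lists chosen by role. Of 35 measured genes of phospholipid synthesis, 3 rose and 0 fell 4 h after the clinical drug, a share near the 7.4% of all genes called, with a list median of 0.03 beside 0.02 over all genes. LPIN2, a phosphatidate phosphatase that makes diacylglycerol, rose from 154 ± 27.9 to 375 ± 51.1 CPM (log2 fold change 1.28, SE 0.14, adjusted p = 8.95e-05). CDS1, which makes CDP-diacylglycerol, rose from 4.47 ± 1.49 to 11.1 ± 2.49 CPM (1.32, SE 0.31, adjusted p = 0.0155). LPCAT2, a lysophosphatidylcholine acyltransferase related to LPCAT1, rose from 5.47 ± 0.549 to 10.3 ± 2.9 CPM (0.91, SE 0.23, adjusted p = 0.0241).

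Of 27 measured genes of fatty acid synthesis and activation, 4 rose and 0 fell at 4 h after the clinical drug, beside the same 7.4% of all genes, with a list median of 0.15 beside 0.02. ACSL4, ACSL3 and ACSL5 encode long-chain acyl-CoA synthetases, which activate fatty acids for esterification. ACSL4 rose from 104 ± 1.12 to 339.7 ± 58.1 CPM (log2 fold change 1.71, SE 0.22, adjusted p = 0.000235), ACSL3 from 40.7 ± 6.08 to 102 ± 15.8 CPM (1.32, SE 0.13) and ACSL5 from 79.7 ± 18.2 to 167 ± 15.5 CPM (1.07, SE 0.17). The fourth was FADS3, a member of the fatty acid desaturase family (0.67, SE 0.18, adjusted p = 0.0261), which lies outside the rule of 3 genes per direction and was named after its value was seen. None of 16 measured lipogenic regulators was called by edgeR or DESeq2, with 1 at an unadjusted p under 0.05.

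After Beta-Ac at 6 h edgeR called 1 of these 78 genes, and DESeq2 called 2, of which 1 was on the phospholipid list. Over all genes edgeR called 78 there and DESeq2 234. ACSL4 rose to 232 ± 56.9 CPM (log2 fold change 1.16, SE 0.21, adjusted p = 0.0461), and its call held in 9 of 13 alternative settings. CDS1 (10.5 ± 2.89 CPM) and LPCAT2 (9.07 ± 1.85 CPM) were not called by edgeR. At 5 d none of the 78 was called after either drug by edgeR or DESeq2, with 2 at an unadjusted p under 0.05 after the clinical drug and 10 after Beta-Ac. Over all 17644 genes tested, 775 and 1133 had an unadjusted p under 0.05.

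**Figure D3:**
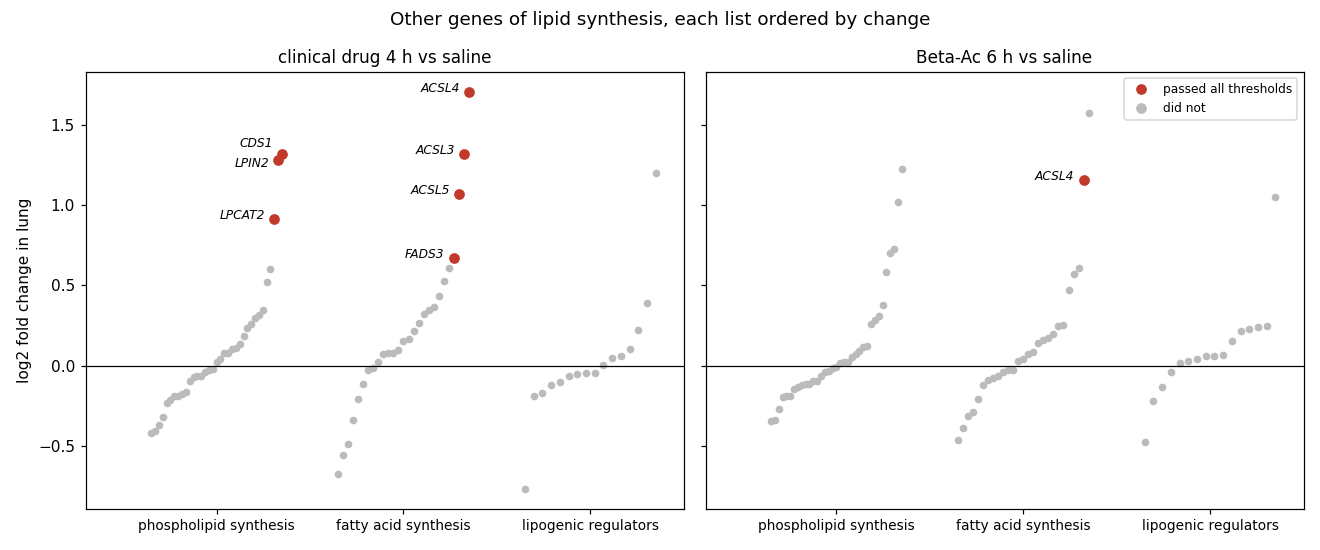
Log2 fold change in fetal lung (y axis) of the other genes of phospholipid synthesis, fatty acid synthesis and lipogenic regulation (x axis, each list ordered by its change), 4 h after the clinical drug (left) and 6 h after Beta-Ac (right) against saline. Red points passed all thresholds, 7 genes on the left, all of them higher, and ACSL4 alone on the right.

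Markers of several cell types moved in the same lungs. Alveolar type 2 cells make surfactant. Of 10 measured markers of these cells, 4 rose 4 h after the clinical drug (SFTPC, ABCA3, LAMP3 and ETV5) and 0 fell, beside 7.4% of all genes called. The summed level of the 10 was 13480 to 20030 CPM in those lungs, 8757 to 13380 CPM in saline lungs and 10640 to 16340 CPM 6 h after Beta-Ac. At 5 d it was 10740 to 14040 CPM after the clinical drug and 13760 to 16270 CPM after Beta-Ac, where it lay above all saline lungs. Of 3 measured lipofibroblast markers, PLIN2 and LPL rose at 4 h, with sums of 122.4 to 270.7 CPM against 38.1 to 72 CPM in saline and 107.2 to 139.7 CPM 6 h after Beta-Ac. At 6 h after Beta-Ac edgeR called 0 type 2 and 0 lipofibroblast markers, and DESeq2 called 2 of each. At 5 d after Beta-Ac edgeR called 0 type 2 markers and DESeq2 called 1. There 5 of them had an unadjusted p under 0.05, beside 1133 of all 17644 genes.

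Of 5 measured leukocyte markers 3 were called in the 4 h clinical drug lungs, beside 7.4% of all genes. Among them PTPRC and CD3E fell. The other called marker is not reported here, so no common direction is read from the 3. The summed level of the 5 was 22.2 to 85.4 CPM in those lungs, overlapping the 65.7 to 83.1 CPM of saline lungs. Of 5 endothelial markers KDR alone was called, and fell, while 4 had an unadjusted p under 0.05, as had 3301 of all 17644 genes. None of 4 general epithelial or 5 mesenchymal markers was called by edgeR or DESeq2 or had an unadjusted p under 0.05. No listed lung marker was at 0 in any lung group. The part of these markers in the changes of CHKA, PCYT1B and FASN was not tested.

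The lung genes whose log2 CPM ran most closely with the called members are given as a description over 15 libraries that share the drug groups. For CHKA they were TBC1D10A (Pearson r = 0.98), SIMC1 (0.98) and ARHGAP10 (0.98). For PCYT1B they were CD34 (0.93), PDE7B (0.93) and PRCP (0.93), and for FASN they included PHC2 (0.90) and CDC42EP4 (0.88).

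In hippocampus no member passed all 3 thresholds. None of the 8 genes was called for CEL against CTL, against 7.86% of 17390 genes tested, and DESeq2 also called 0. CHKA, FASN and ACACA had adjusted p-values under 0.1 at folds under 1.5, and without the fold threshold these 3 of 8 passed, against 21.9% of all genes. For BAC against CTL 0 of 8 were called by edgeR and DESeq2, with ACACA alone at an unadjusted p under 0.05, and 0% of all genes were called by edgeR. Of the 17390 genes, 2133 had an unadjusted p under 0.05 there. For CEL against BAC 0 of 8 were called by either tool, none had an unadjusted p under 0.05, and 0% of all genes were called by edgeR. Over all genes DESeq2 called 138 for BAC against CTL and 180 for CEL against BAC.

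CHKA in hippocampus was at 33.5, 35.9, 39.8, 42.5 and 44.2 CPM in CTL and at 23.7, 24.6, 25.8, 31.9 and 32.2 CPM in CEL, without overlap, while BAC spread from 21.7 to 45.6 CPM over both. The log2 difference of CEL from CTL was -0.50 (95% interval -0.88 to -0.13, adjusted p = 0.0708). With sequencing run as a block it was -0.57 (adjusted p = 0.134). FASN was at 513.6, 535.8, 614.9, 721.5 and 806.4 CPM in CTL and at 333.2, 397.8, 453.0, 535.7 and 548.6 CPM in CEL, and the groups overlapped (log2 difference -0.49, adjusted p = 0.0654).

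The FASN values followed the sequencing run as well. The 3 highest CTL values came from run0024 and run0162, which hold no treated fetus. Within run1630 the single CTL fetus was at 535.8 CPM and the 3 CEL fetuses at 333.2, 397.8 and 453.0 CPM, and within run0164 the single CTL fetus was at 513.6 CPM and the 2 CEL fetuses at 535.7 and 548.6 CPM. With run as a block the FASN difference was -0.20 (adjusted p = 0.415).

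ACACA was also high in the CTL fetuses of those runs. It was at 149.0 CPM in the CTL fetus of run0164 and at 180.7 to 214.0 CPM in the other 4 CTL fetuses, against 145.0 to 163.5 CPM in CEL and 134.9 to 162.8 CPM in BAC. Its log2 difference from CTL was -0.27 for CEL (adjusted p = 0.0698) and -0.33 for BAC (unadjusted p = 0.00305, adjusted p = 0.246). With run as a block these were -0.07 and -0.13.

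One CTL library (CTL212, run0164) held 746.3 CPM of 2 choroid plexus markers, against 0.159 to 3.67 CPM in the other 14, and the highest SREBF1 value in hippocampus, 73.8 CPM. Without it the CEL difference was -0.46 for CHKA, -0.56 for FASN and -0.34 for ACACA, and still 0 members were called. PCYT1A, PCYT1B, CHPT1 and LPCAT1 had log2 differences of 0.07 to 0.18 for CEL and 0.07 to 0.20 for BAC, none of them called. The library BAC235 stood apart in its group, at 166.5 to 261.4 chi-square per gene from the other BAC libraries against 34.2 to 78.6 among those 4. Without it 0 members were called for BAC against CTL or CEL against BAC, and the BAC difference of PCYT1A from CTL was 0.17 in place of 0.07. PCYT1A averaged 107 ± 8.3 CPM in CTL, 122 ± 5.51 CPM in CEL and 113 ± 18.3 CPM in BAC (SD, n = 5).

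Of the other lipid genes in hippocampus, 0 of 34 for phospholipid synthesis rose and 2 fell in CEL against CTL, and of 28 for fatty acid synthesis 1 rose and 2 fell, where 7.86% of all genes were called. CTPS1, which makes the CTP that CCT uses, fell from 36 ± 4.61 to 21.6 ± 1.76 CPM (log2 fold change -0.73, SE 0.12, adjusted p = 0.0138). The acyltransferase gene AGPAT4 fell from 28.4 ± 3.3 to 17.7 ± 2.4 CPM (-0.68, SE 0.12). HACD3 (-0.82, SE 0.17) and TECR (-0.60, SE 0.18), of the fatty acid elongation cycle, fell, and the elongase gene ELOVL2 rose (0.61, SE 0.13). With run as a block 4 of these 5 lost their call, at log2 differences of -0.55 for CTPS1, -0.49 for AGPAT4, -0.69 for HACD3 and 0.51 for ELOVL2. TECR was called there (-0.67) but in 12 of 19 alternative settings in all, and none of the 5 was called within the 2 runs that hold all groups. None of 17 lipogenic regulators was called by edgeR or DESeq2, with 6 at an unadjusted p under 0.05. In BAC no gene of these lists was called by either tool, with 10 at an unadjusted p under 0.05. Over all 17390 genes, 5322 in CEL and 2133 in BAC had an unadjusted p under 0.05.

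**Figure D4:**
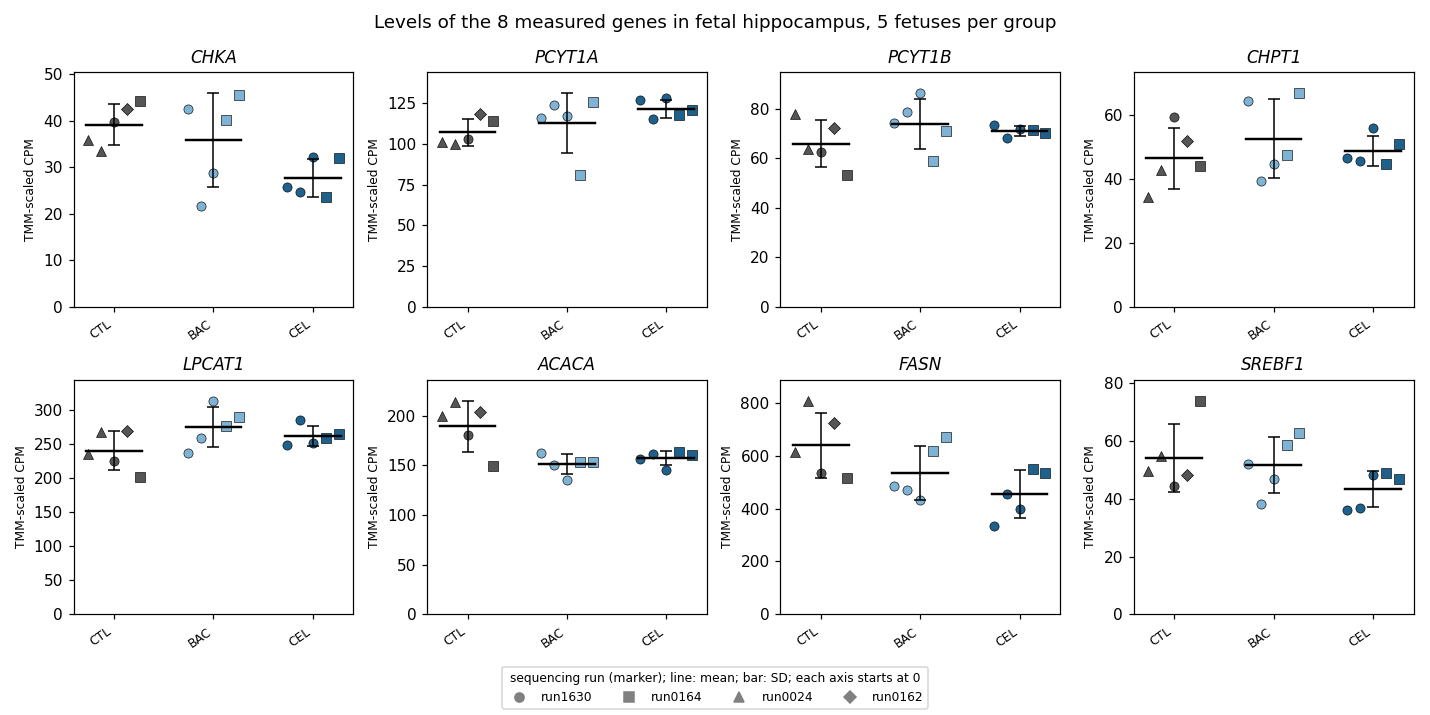
TMM-scaled CPM of the 8 measured genes in fetal hippocampus (y axis, from 0, 1 panel per gene) in CTL, BAC and CEL (x axis), 5 fetuses each. Points are fetuses with a marker for the sequencing run, lines are means and bars are SD. CHKA in CEL lies below all CTL points, while for FASN and ACACA the CTL points of run0024 and run0162 lie above the other CTL points.

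Lung and hippocampus of the same fetus were then set side by side. In the 9 fetuses with both, 6 of 7 members were called between lung and hippocampus, against 73.5% of 15173 genes tested, so that such a difference was the rule in these tables. For this comparison levels were rescaled over both tissues together, and the main test did not pair the tissues by animal. With the animal as replicate block the same 6 members were called, with an adjusted p of 1.18e-11 for PCYT1B. PCYT1B was at 4.57 to 8.44 CPM in lung and 71.3 to 100.5 CPM in hippocampus, 8.45 to 20.9 times as high in hippocampus of the same fetus (log2 lung over hippocampus -3.77, SE 0.09, adjusted p = 9.55e-17). FASN (-1.53), CHPT1 (-1.22) and ACACA (-0.91) were also lower in lung, each in 9 of 9 fetuses.

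CHKA (1.04) and SREBF1 (0.68) were higher in lung in 9 of 9 fetuses. LPCAT1 was higher in 8 of 9, by 0.38 on the log2 scale (adjusted p = 0.000394), under the fold threshold. The exception for LPCAT1 was saline animal 101, at 274.8 CPM in lung and 303.7 CPM in hippocampus. For cell markers, levels were scaled within each tissue over all its 15 libraries. Alveolar type 2 markers summed to 346.5 to 466.1 CPM in hippocampus (7 markers) and 8757 to 20030 CPM in lung (10 markers). Neuron markers summed to 6.83 to 21.2 CPM in lung (5 markers) and 3298 to 5502 CPM in hippocampus (6 markers). The gene models and the processing differ with the tissue and cannot be told apart from it. No sequencing run is recorded here for the lung libraries. An effect of run between the tissues or within lung could therefore not be examined.

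**Figure D5:**
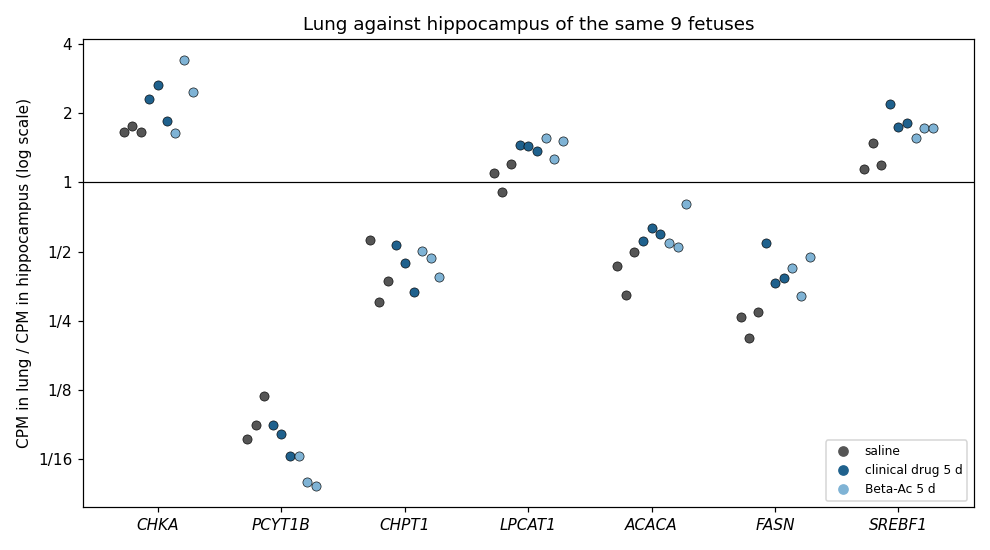
Ratio of CPM in lung to CPM in hippocampus (y axis, log scale) for the 7 genes (x axis) in the 9 fetuses sequenced in both tissues. Each point is a fetus, coloured by treatment. CHKA and SREBF1 lie above 1 and PCYT1B, CHPT1, ACACA and FASN below 1 in all 9 fetuses.

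The 5 d effect was then compared between the tissues of these 9 fetuses, as the lung effect minus the hippocampus effect. The main test again did not pair the tissues by animal. For the clinical drug FASN was called, with a difference of 0.80 (SE 0.22, adjusted p = 0.0655), 1 of 7 members against 5.2% of all genes. Its lung values on this scale were 166.3, 180.2 and 192.5 CPM in saline and 176.2, 192.6 and 212.2 CPM after the drug. In hippocampus they were 609.2, 692.0 and 916.1 CPM in controls and 390.5, 457.9 and 526.5 CPM after the drug. The controls at 692.0 and 916.1 CPM were the fetuses of run0024, and the other 7 hippocampi came from run1630. The call was lost without any 1 of animals 92, 101, 115, 120 and 126. In the fit with the animal as replicate block FASN was at 0.79 and SREBF1 was also called at 0.58 (adjusted p = 0.0798), which made 2 of 7.

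For Beta-Ac 0 of 7 members were called, against 0.0198% of all genes. Of the 7, 4 had an unadjusted p under 0.05, with differences of -0.80 for PCYT1B, 0.74 for FASN, 0.57 for ACACA and 0.45 for LPCAT1. Over all 15173 genes, 2186 had an unadjusted p under 0.05. The count of called members rose to 3 without animal 128 (CHKA, PCYT1B and ACACA) and to 2 without animal 113 (ACACA and FASN). Over all genes the count went from 3 to 840 and to 534 under these omissions.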

How the data were processed

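RNA was sequenced from whole lung and hippocampus of Rhesus macaque fetuses. The authors deposited raw read counts per Ensembl gene, 1 table per tissue. Their processing notes name Bowtie 1.2.1.1 and featureCounts 1.5.1 for lung, and Bowtie2, featureCounts and edgeR for hippocampus. The 32386 hippocampus and 30246 lung genes share 20572 identifiers, so the tables rest on different gene models. Symbols came from an Ensembl table, which named 52.1% of lung and 54.4% of hippocampus rows. Genes that it does not name, or that a table lacks, are not analysed here.

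From the deposited counts, genes that reached 7 reads in 3 or more libraries (5 for hippocampus) were tested with edgeR 4.0.16 in R 4.3.3 (TMM, quasi-likelihood F-test, all groups of a tissue in 1 fit). Adjusted p-values are Storey q-values in lung and Benjamini-Hochberg values elsewhere. DESeq2 1.42.0 was an alternative. Between tissues the main fit did not pair by animal, and a fit with the animal as replicate block was another alternative. The test was checked on simulated counts. Replicates are separate fetuses, and no pair of libraries of the same group agreed within sampling noise. Pairs across groups were not examined. Fetuses with both tissues pair by animal number: deviations from group means correlated at 0.06 to 0.18 between the tissues of an animal, and 9 of 9 lungs correlated best with the hippocampus of their own animal.

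The members and gene lists were chosen with earlier results of these data known. Beside the members, the text names up to 3 called genes per list and direction in each comparison with controls, and the 3 genes most correlated with each called member. Some genes that these rules or the marker lists would name are not reported here.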

Additional observations from a re-analysis of the deposited data

Results flagged for a closer look

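In hippocampus, PCYT1A in BAC235 was at 80.99 CPM, below the other 4 BAC fetuses at 116 to 126.1 CPM. The library also stood apart over all genes, at 166.5 to 261.4 chi-square per gene from the other BAC libraries, which differed from each other by 34.2 to 78.6. The gap of its PCYT1A level to the nearest of them was 0.776 of the group's range. It was the only such sample among 24 groups examined, at a limit that chance passes in about 1 in 20 groups.

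CHKA, PCYT1B and SREBF1 differed between times after the clinical drug in lung, by a test of 4 h against 5 d. The log2 differences were 1.53 for CHKA, -1.11 for PCYT1B and -0.72 for SREBF1. Titles of the 4 h lungs begin with 15 and those of the 5 d lungs with 16, which cannot be told apart from the time.

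The 5 d effect of the clinical drug on FASN differed between tissues, by a test of the difference. The log2 effect in lung minus that in hippocampus was 0.80. That call did not hold when animal 92, 101, 115, 120 or 126 was left out. The 2 highest hippocampus controls came from run0024, which holds no treated fetus, and the part of run was not tested.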

How the results depend on the processing

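Of 1394 values of single members under an alternative setting, 1320 kept their direction and their side of the threshold, 37 reversed, 19 lost and 18 gained a call. The cause of these changes was not tested. The 3 calls 4 h after the clinical drug held under all 7 settings other than omissions. The 1 call 6 h after Beta-Ac became 0 with no count filter and with only the 2 groups fitted, and was 0 to 1 over omitted lungs. The 2 calls between the early groups became 1 with no count filter, with Benjamini-Hochberg adjustment or with only the 2 groups fitted, and 1 to 3 over omissions. With no fold threshold, 4 h against 5 d gave 5 calls in place of 3, and CEL against CTL gave 3 in place of 0. With the animal as replicate block, the difference between tissues in the 5 d effect of the clinical drug gave 2 calls in place of 1 (0 to 2 over omitted animals), and that of Beta-Ac stayed at 0 (0 to 3 over omissions). The block changed no other member call.

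No reversed value was called. For clinical drug against Beta-Ac at 5 d, ACACA reversed to -0.002 with filterByExpr and to -0.005 with no filter. With run as a block, or with only the 2 runs that hold all groups, CHPT1 in CEL reversed to -0.087 and -0.071, and FASN in BAC to 0.032 and 0.054. Over omitted libraries these log2 differences crossed 0. Against saline they were ACACA (-0.144 to 0.011), CHPT1 (-0.27 to 0.09) and LPCAT1 (-0.23 to 0.25) at 6 h after Beta-Ac, CHKA (-0.027 to 0.053) at 5 d after the clinical drug and CHPT1 (-0.004 to 0.50) at 5 d after Beta-Ac. Between the drugs they were ACACA (-0.10 to 0.13), CHPT1 (-0.26 to 0.25), LPCAT1 (-0.17 to 0.10) and SREBF1 (-0.085 to 0.129) at 5 d and LPCAT1 (-0.054 to 0.432) early. Between times they were CHPT1 (-0.13 to 0.11) for the clinical drug, and FASN (-0.226 to 0.053) and PCYT1B (-0.23 to 0.22) for Beta-Ac. In hippocampus they were CHKA (-0.232 to 0.006) and SREBF1 (-0.147 to 0.071) in BAC, CHPT1 (-0.024 to 0.171) in CEL and PCYT1B (-0.127 to 0.006) between the drugs. Between tissues it was CHPT1 in the effect of the clinical drug (-0.045 to 0.338).

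Counts over all genes moved more. For Beta-Ac at 6 h against saline, 78 genes became 234 in DESeq2, 19 with only the 2 groups, and 9 to 211 over omitted lungs. At 5 d against saline DESeq2 called 16 genes with the clinical drug and 38 with Beta-Ac. For 4 h against 6 h, 1189 genes became 724 with no filter, 314 with only the 2 groups, and 667 to 1971 over omissions. For Beta-Ac at 6 h against 5 d, 46 became 177 in DESeq2, 29 with Benjamini-Hochberg and 9 with only the 2 groups. In hippocampus CEL against CTL gave 1366 genes, or 596 with run as a block in the 2 shared runs, and BAC against CTL gave 0, or 138 in DESeq2. CEL against BAC gave 0, or 180 in DESeq2 and 13 with run as a block. The tissue difference in the 5 d effect gave 789 genes for the clinical drug (0 to 1260 over omissions) and 3 for Beta-Ac (0 to 840). Groups of 3 fetuses and the low PCYT1B counts limit what could be seen in lung.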
